A study of Mus musculus with 10 samples.

Results

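The genes described here are 39 core components of the NF-kappaB pathway, taken by symbol from the 17493 genes of an RNA sequencing table. They comprise the NF-kappaB subunits, the IkB proteins, the IkB kinases, the TRAF adaptors, and the ubiquitin enzymes and RIP kinases that connect receptors to those kinases. All 39 were in the table and all 39 passed the filter on low values that left 12535 genes to test. They were measured in mouse Th17 cells, helper T cells that make IL-17, given TMP269 (2 libraries) or DMSO, the solvent control (2 libraries). TMP269 is a synthetic compound that blocks class IIa histone deacetylases. Both groups came from C57BL/6 spleen: naive CD4 T cells received anti-CD3 and anti-CD28 with IL6 at 20 ng/mL and TGFb at 2.5 ng/mL, with a culture time of 48 to 72 h. TMP269 was added before harvest, at a dose and for a time that the labels do not state. The cultures were polarised in a dish, and the labels do not say whether the 2 libraries of a group came from separate animals, so p-values reflect only how far these libraries differ from each other, a spread that may be technical. The 6 libraries of chromatin immunoprecipitation and input in the series are not analysed here.

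NF-kappaB proteins are dimers of the subunits p50, p52, p65 (RelA), c-Rel and RelB, held inactive in resting cells by IkB proteins or by the precursors p105 and p100. In the canonical branch, antigen receptor, TNF and IL-1 signals activate the kinase complex of IKKalpha, IKKbeta and NEMO, which marks IkB for destruction. In the non-canonical branch, the kinase NIK drives the processing of p100 to p52. Several inhibitors of the pathway, among them IkBalpha and A20, are textbook targets of NF-kappaB itself and form its feedback loops. In T cells the pathway carries the CD28 and antigen receptor signal to Il2 and other activation genes, and c-Rel and IkBzeta are known from mouse studies to take part in Th17 differentiation.

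The 4 libraries held 20007042 to 25321455 reads. The ribosomal RNA gene Rn45s took 0.716% and 1.12% of reads with TMP269 and 0.836% and 2.20% with DMSO, which set DMSO replicate 2 apart. The T cell genes Cd3e (4428 and 4776 normalised reads with TMP269, against 4097 and 4821 with DMSO) and Cd4 (9479 and 8896 normalised reads with TMP269, against 8299 and 8263 with DMSO) were well covered, as was the Th17 cytokine gene Il17a (750.4 and 786 normalised reads with TMP269, against 1888 and 1949 with DMSO). A gene was called at a limma adjusted p under 0.05, with adjustment over all 12535 genes, of which 12.8% were called higher and 14.7% lower with TMP269. All 13 B cell markers were above 0 in some library, none was called higher with TMP269 and 8 were called lower. They summed to 3094 and 3124 normalised reads with TMP269, against 5428 and 5616 with DMSO. Of 15 myeloid markers in the table, each above 0 in some library and 8 of them tested, 1 was called higher and 2 lower, with a sum of 2123 and 2273 normalised reads with TMP269, against 2269 and 2436 with DMSO. The 9 markers of CD8 T and NK cells in the table, each above 0 in some library and 6 of them tested, gave no call and summed to 543 and 813 normalised reads with TMP269, against 632 and 792 with DMSO. B cells and myeloid cells also express many NF-kappaB genes, and fewer cells of a type cannot be told apart from less RNA per cell. The part of these cells in the results was not tested.

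With TMP269, 17 of the 39 NF-kappaB genes rose (12.8% of all tested genes did), 1 fell (14.7% of all tested genes did) and 21 did not pass the test. The rises were led by Ikbke, the gene of the kinase IKKepsilon, at 2.18-fold, followed by the feedback inhibitors Tnip1 (1.53-fold), Tnfaip3 (1.49-fold) and Nfkbia (1.48-fold) and the subunit gene Rel (1.49-fold). The fall was that of Ripk2, the kinase of the NOD receptors, to 0.646-fold. Apart from Ikbke, no member changed by as much as 2-fold, and the smallest called rise was 1.19-fold.

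The 17 and 1 called members are 43.6% and 2.56% of the 39. Both TMP269 libraries lay above both DMSO libraries for 27 members (69.2%), against 32.6% of all tested genes. Both lay below for 3 members (7.69%), against 34.0% of all tested genes, and the groups overlapped for 9. The median log2 fold change was 0.19 over the members and -0.0037 over all tested genes.

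The count of higher members depended on single libraries. It was 8 without TMP269 replicate 1 and 11 without TMP269 replicate 2, and it was 17 and 9 when DMSO replicates 1 and 2 were left out in turn. In the whole table the same fits called 9.16%, 9.94%, 14.4% and 8.48% of genes higher, in this order. In all 4 of these fits Ikbke, Tnip1, Rel, Tnfaip3, Nfkbia and Trafd1 were called higher and Ripk2 lower. The number of lower members was 2 without DMSO replicate 1 or without TMP269 replicate 2, the other gene being Tnip3. With library totals set equal, the median difference over the whole table moved by 0.10 on the log2 scale, higher genes made up 67.3% of all calls in place of 46.5%, and 23 members were called higher and 1 lower, against 17.1% and 8.31% of all tested genes.

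**Figure D1:**
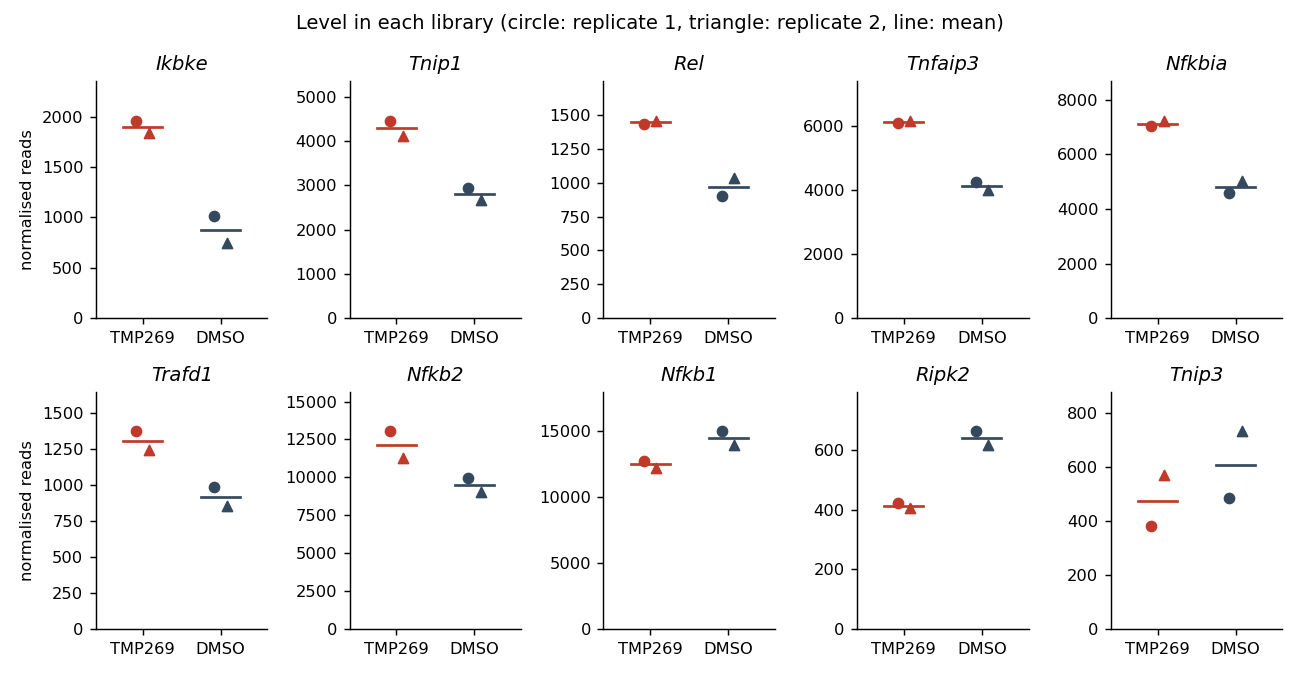
Level of 10 of the NF-kappaB genes in each library, in normalised reads on axes that start at 0, with the TMP269 libraries left of the DMSO libraries. Circles are replicate 1, triangles replicate 2 and lines the mean of 2 libraries. The groups do not overlap for any gene shown but Tnip3, whose replicate 2 was the higher library in both groups.

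**Figure D2:**
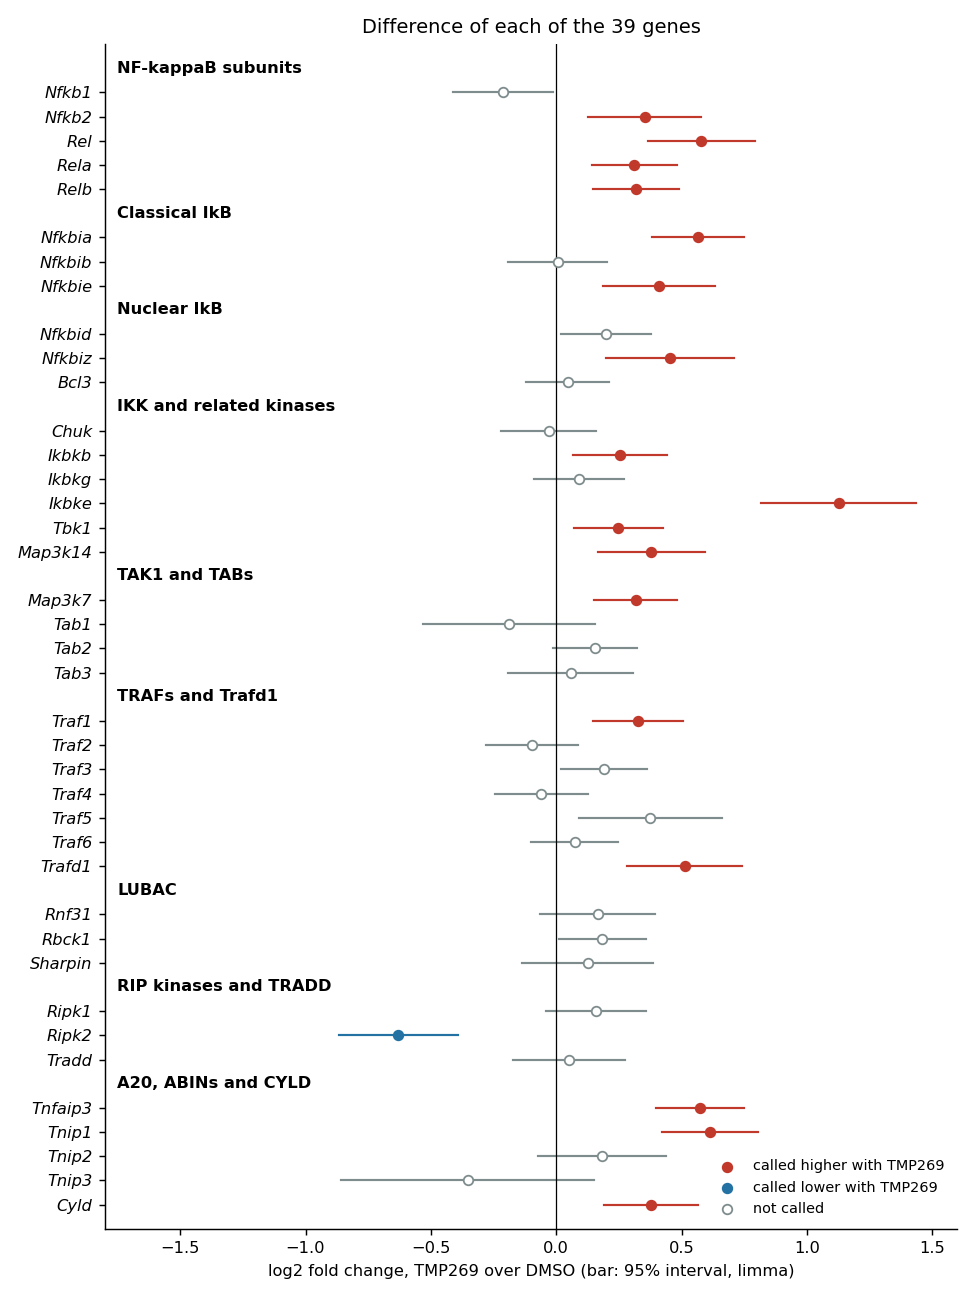
Log2 fold change of TMP269 over DMSO for all 39 genes, by family, with the unadjusted 95% interval from limma. Filled points are the 17 genes called higher and the 1 called lower, and open points the 21 not called; an open point whose interval leaves out 0 did not pass after adjustment over all genes.

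Because several members are known targets of NF-kappaB, the promoters of the members were searched for the kappaB consensus, the decamer bound by NF-kappaB dimers, on both strands. RefSeq promoter windows of assembly GRCm38.p6, each reaching 250 bases before to 50 bases after a gene's start, were found for 31 members. Promoters of the other 8, Nfkb1, Relb, Nfkbiz, Ikbkb, Tab1, Sharpin, Ripk2 and Tradd, are not shown. A match stood in a window of 12 of the 31 members (38.7%). This compares with 1181 of 9427 tested genes with a window (12.5%) and 9.55% of all 27025 genes with a window. Among members called higher it was 8 of 14 (57.1%), among the other members 4 of 17 (23.5%), and among all tested genes called higher 182 of 1205 (15.1%). These shares are descriptions, and a match is not evidence of a bound site. The 8 rising genes with a match were Nfkb2, Rel, Nfkbia, Nfkbie, Map3k7, Tnfaip3, Tnip1 and Cyld.

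The stretches below are shown because they hold matches of the 8 rising genes, all of them but for Nfkb2. They run 5′ to 3′ along the gene's strand, with the matched bases in capitals and overlapping matches joined. The Nfkbia match begins 29 bases before the start site and that of Rel 92 bases before it. Tnip1 holds a cluster of 3 overlapping matches that begins 58 bases before it. Tnfaip3 has its matches at 125 and 12 bases before the start, in 1 of its 2 windows. Nfkb2 has 3 windows, and the first is shown, with 3 matches that begin between 39 and 11 bases before its start. Its other windows hold 2 further sites, 1 of them in both windows: a match that begins 236 bases before the second start, and 1 that begins 10 bases after the second start and 225 bases before the third.
Nfkbia (chr12:55492652-55492691, minus strand): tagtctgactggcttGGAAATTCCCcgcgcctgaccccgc
Rel (chr11:23771036-23771076, minus strand): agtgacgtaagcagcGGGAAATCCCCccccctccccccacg
Tnip1 (chr11:54962972-54963013, minus strand): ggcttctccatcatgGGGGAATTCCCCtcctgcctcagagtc
Tnfaip3 (chr10:19015511-19015550, minus strand): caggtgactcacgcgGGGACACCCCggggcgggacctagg
Tnfaip3 (chr10:19015398-19015437, minus strand): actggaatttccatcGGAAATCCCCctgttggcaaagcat
Nfkb2 (chr19:46304683-46304750, plus strand): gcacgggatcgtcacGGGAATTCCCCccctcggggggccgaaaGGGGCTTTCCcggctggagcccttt
Nfkbie (chr17:45555579-45555618, plus strand): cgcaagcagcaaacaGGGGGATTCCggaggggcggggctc
Cyld (chr8:88696858-88696897, plus strand): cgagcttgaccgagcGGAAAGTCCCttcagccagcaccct
Map3k7 (chr4:31964000-31964039, plus strand): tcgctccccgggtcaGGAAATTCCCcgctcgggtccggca

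The other 4 members with a match were not called and are shown for contrast. The Tnip3 and Rel matches share the same core decamer. The groups overlapped for Tnip3 and did not for Rel. Whether a match bears on the change of a gene was not tested. No match was found in the windows of Ikbke, Trafd1, Rela, Map3k14, Tbk1 and Traf1, which also rose.
Nfkbid (chr7:30422165-30422249, plus strand): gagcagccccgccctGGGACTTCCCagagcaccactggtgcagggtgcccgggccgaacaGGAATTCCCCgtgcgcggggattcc
Bcl3 (chr7:19822729-19822768, minus strand): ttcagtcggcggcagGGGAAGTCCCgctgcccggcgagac
Traf3 (chr12:111166345-111166384, plus strand): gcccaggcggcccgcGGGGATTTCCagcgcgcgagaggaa
Tnip3 (chr6:65590329-65590368, plus strand): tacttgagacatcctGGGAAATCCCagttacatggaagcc

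Of the 5 genes that encode NF-kappaB subunits, 4 rose and Nfkb1 was not called. Rel, which encodes c-Rel, the subunit most tied to T cell activation, was at 1429 and 1458 normalised reads with TMP269, against 902 and 1036 with DMSO. Its groups were well apart, at 1444 ± 20.1 with TMP269 and 969 ± 95.1 with DMSO (SD, n = 2), and it rose 1.49-fold (limma adjusted p = 0.00345; log2 fold change 0.58 ± 0.09 SE). Rela, the gene of the main activating subunit p65, was at 3568 and 3678 normalised reads with TMP269, against 2959 and 2877 with DMSO. Its rise was 1.24-fold (limma adjusted p = 0.0158), and the difference between groups was larger than the spread within either. Relb, the non-canonical partner of p52, was at 2667 and 2535 normalised reads with TMP269, against 2076 and 2095 with DMSO, and rose 1.25-fold (limma adjusted p = 0.0159).

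Nfkb2, which encodes p100 and p52, was at 13042 and 11269 normalised reads with TMP269, against 9966 and 9051 with DMSO. It rose 1.28-fold (limma adjusted p = 0.0306), with TMP269 replicate 1 the highest library. Nfkb1, which encodes p105 and p50, went the other way, at 12740.1 and 12181 normalised reads with TMP269, against 14978 and 13913 with DMSO. Both TMP269 libraries were the lower ones, but Nfkb1 missed the threshold (limma adjusted p = 0.104), with a log2 fold change of -0.21 (95% interval -0.41 to -0.013). The Rela call did not hold without TMP269 replicate 1 (limma adjusted p = 0.0573), TMP269 replicate 2 (0.0947) or DMSO replicate 2 (0.0625). That of Relb did not hold without TMP269 replicate 1 (limma adjusted p = 0.118), and that of Nfkb2 without TMP269 replicate 1 (0.259) or DMSO replicate 2 (0.125).

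Among the 3 classical IkB genes, whose proteins hold dimers in the cytoplasm, Nfkbia and Nfkbie rose and Nfkbib was not called. Nfkbia, the gene of the fast feedback inhibitor IkBalpha, was at 7022 and 7239 normalised reads with TMP269, against 4604 and 5042 with DMSO. The gap between the groups was far wider than that within either, and the rise was 1.48-fold (log2 fold change 0.57 ± 0.08 SE, limma adjusted p = 0.00197). Nfkbie, which encodes IkBepsilon, a slower feedback inhibitor, was at 2085 and 1753 normalised reads with TMP269, against 1472 and 1409 with DMSO, and rose 1.33-fold (limma adjusted p = 0.0160). Its call did not hold without TMP269 replicate 1 (limma adjusted p = 0.125) or DMSO replicate 2 (0.0533). Nfkbib, for IkBbeta, was at 2119 and 1969.8 normalised reads with TMP269, against 1928 and 2148 with DMSO, with overlapping groups (95% interval of the log2 fold change -0.19 to 0.20, limma adjusted p = 0.968).

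The nuclear IkB proteins act on chromatin with p50 or p52 dimers, and of their 3 genes 1 rose. Nfkbiz, the gene of IkBzeta, was at 1039.8 and 1249.9 normalised reads with TMP269, against 882 and 784 with DMSO, and rose 1.37-fold (limma adjusted p = 0.0180). TMP269 replicate 2 was its highest library, and the call was lost without it (limma adjusted p = 0.0980) or without DMSO replicate 2 (0.0763). Nfkbid, which encodes IkBNS, was at 2745 and 2640.4 normalised reads with TMP269, against 2258 and 2439 with DMSO. Its groups did not overlap but it was not called (limma adjusted p = 0.0962, 1.15-fold). Bcl3 was at 2929 and 2935 normalised reads with TMP269, against 2848 and 2836 with DMSO, with both groups tight and close to each other (95% interval of the log2 fold change -0.12 to 0.21, limma adjusted p = 0.678).

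In the kinase group, 4 of 6 genes rose. Ikbke, an IKK-related kinase best known from antiviral signalling, was at 1962 and 1835 normalised reads with TMP269, against 1016 and 743 with DMSO. Its mean was 1898 ± 89.7 with TMP269 and 879 ± 193 with DMSO (SD, n = 2), a difference of 1.13 ± 0.14 (SE) on the log2 scale (limma adjusted p = 0.00102). The lower of the TMP269 libraries was well above the higher of the DMSO libraries. Its closest relative Tbk1 was at 1747 and 1707 normalised reads with TMP269, against 1479 and 1430.5 with DMSO, a 1.19-fold rise (limma adjusted p = 0.0457). The Tbk1 call was lost with any 1 library left out, with limma adjusted p-values of 0.234 and 0.145 without TMP269 replicates 1 and 2, and 0.0689 and 0.165 without DMSO replicates 1 and 2. DESeq2 did not call it either (adjusted p = 0.0859).

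Of the classical IKK complex, only Ikbkb, for IKKbeta, was called, at 2652 and 2436 normalised reads with TMP269, against 2196 and 2065 with DMSO, a 1.19-fold rise (limma adjusted p = 0.0485). This call lay close to the threshold: it did not hold without TMP269 replicate 1 (limma adjusted p = 0.316), TMP269 replicate 2 (0.0671) or DMSO replicate 2 (0.189), nor in DESeq2 (adjusted p = 0.0633). Chuk, for IKKalpha, was at 1649 and 1814 normalised reads with TMP269, against 1750.0 and 1783 with DMSO, with overlapping groups (limma adjusted p = 0.811). Ikbkg, for the scaffold NEMO, was at 1507 and 1563 normalised reads with TMP269, against 1439 and 1444 with DMSO (95% interval of the log2 fold change -0.088 to 0.27, limma adjusted p = 0.420). Map3k14, which encodes NIK, the trigger of the non-canonical branch, was at 1812 and 1609 normalised reads with TMP269, against 1380.2 and 1247 with DMSO, and rose 1.30-fold (limma adjusted p = 0.0183). Without TMP269 replicate 1 its limma adjusted p was 0.117, and without DMSO replicate 2 it was 0.0852.

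Upstream of the IKK complex, Map3k7, the gene of the kinase TAK1, was at 3943 and 4003 normalised reads with TMP269, against 3175 and 3206 with DMSO. Replicates were close within each group, and the rise was 1.25-fold (limma adjusted p = 0.0142, or 0.0637 with TMP269 replicate 1 left out and 0.0779 without TMP269 replicate 2). Its 3 partner genes were not called. Tab2, a ubiquitin-binding partner, was at 3922 and 3905 normalised reads with TMP269, against 3470.4 and 3557 with DMSO (limma adjusted p = 0.147). The related Tab3 was at 406 and 432 normalised reads with TMP269, against 402 and 403 with DMSO, and the activator Tab1 at 422 and 363 normalised reads with TMP269, against 512 and 388 with DMSO, with overlapping groups for Tab1 (95% interval of the log2 fold change -0.53 to 0.16).

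Among 6 TRAF genes and Trafd1, 2 rose and 5 were not called. Trafd1, an interferon-inducible brake on Toll-like receptor signalling, was at 1371 and 1242 normalised reads with TMP269, against 983 and 852 with DMSO, and rose 1.43-fold (log2 fold change 0.51 ± 0.10 SE, limma adjusted p = 0.00747). Traf1, an adaptor of TNF receptor family members that NF-kappaB induces, was at 3693 and 3563 normalised reads with TMP269, against 3007 and 2778 with DMSO, and rose 1.25-fold (limma adjusted p = 0.0163, or 0.0916 with TMP269 replicate 1 left out and 0.0813 without DMSO replicate 2). Traf5, an adaptor of costimulatory TNF receptors, had the fewest reads of the members, at 334 and 312 normalised reads with TMP269, against 242 and 256 with DMSO. Its groups did not overlap (1.30-fold) and it just missed the threshold (limma adjusted p = 0.0547), while edgeR called it (adjusted p = 0.0485) and DESeq2 did not (adjusted p = 0.150). No fit with a library left out called it, with limma adjusted p-values from 0.113 to 0.262.

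Traf2 and Traf3 keep NIK low by way of their ubiquitin ligase complex. Traf3 was at 3291 and 3257 normalised reads with TMP269, against 2806 and 2933 with DMSO (limma adjusted p = 0.0909) and Traf2 at 1151 and 1164 normalised reads with TMP269, against 1242 and 1234 with DMSO (limma adjusted p = 0.404). Both TMP269 libraries were above the DMSO libraries for Traf3 and below them for Traf2, neither of which was called. Traf6, the adaptor of IL-1 and Toll-like receptors, was at 6916 and 6997 normalised reads with TMP269, against 6539.5 and 6687 with DMSO (95% interval of the log2 fold change -0.099 to 0.25), and Traf4, whose groups overlapped, at 2770.0 and 2956 normalised reads with TMP269, against 2869 and 3097 with DMSO.

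None of the 3 genes of LUBAC, the linear ubiquitin chain assembly complex, was called in the main limma fit. Their log2 fold changes ranged from 0.13 to 0.18, with unadjusted limma p-values of 0.139, 0.0401 and 0.306 for Rnf31, Rbck1 and Sharpin. Both edgeR and DESeq2 called 0 of the 3 genes. With equal library totals limma called Rbck1 (adjusted p = 0.0283). With the replicate number as a block it called Rbck1 (limma adjusted p = 0.00916) and Rnf31 (0.0246). Rbck1, for HOIL-1, was at 4070.3 and 3853 normalised reads with TMP269, against 3425 and 3547 with DMSO, the only 1 of the 3 with groups apart. Rnf31, for the catalytic subunit HOIP, was at 1875 and 1676 normalised reads with TMP269, against 1711 and 1461 with DMSO, and Sharpin at 779 and 722 normalised reads with TMP269, against 757 and 625 with DMSO. In both, the libraries of replicate 1 were the higher ones in each group.

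Ripk2 was the one member that fell. It was at 422 and 407 normalised reads with TMP269, against 664 and 619 with DMSO, with means of 414 ± 10.8 with TMP269 and 641 ± 32.0 with DMSO (SD, n = 2). On the log2 scale it changed by -0.63 ± 0.10 (SE; limma adjusted p = 0.00361). Its limma adjusted p stayed between 0.00166 and 0.0111 with single libraries left out, and was 0.0155 with equal library totals. Ripk1, the kinase at the TNF receptor, was at 2065 and 2273 normalised reads with TMP269, against 1855 and 2036 with DMSO (limma adjusted p = 0.213). Tradd, the adaptor of that receptor, was at 613 and 593 normalised reads with TMP269, against 599 and 566 with DMSO, with overlapping groups (95% interval of the log2 fold change -0.17 to 0.27).

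Of the 5 genes for A20, its partners and CYLD, which restrain the pathway by editing or binding ubiquitin chains, 3 rose. Tnfaip3, for A20, was at 6070.3 and 6161 normalised reads with TMP269, against 4239.7 and 3989.9 with DMSO. Replicates agreed closely within groups, at 6116 ± 64.3 with TMP269 and 4115 ± 177 with DMSO (SD, n = 2), and the log2 fold change was 0.57 ± 0.08 (SE, limma adjusted p = 0.00157). Tnip1, for the A20 partner ABIN-1, was at 4467 and 4113 normalised reads with TMP269, against 2935 and 2681 with DMSO, and rose 1.53-fold (limma adjusted p = 0.00176). The deubiquitinase gene Cyld was at 4786 and 5243 normalised reads with TMP269, against 3731 and 3978 with DMSO, and rose 1.30-fold (limma adjusted p = 0.0111, or 0.0748 with TMP269 replicate 2 left out). With Nfkbia, Rel, Nfkb2, Nfkbie and Map3k7, these 3 genes make up the 8 rising members with a kappaB match shown above.

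The other ABIN genes were not called. Tnip2, for ABIN-2, was at 1339.5 and 1258 normalised reads with TMP269, against 1277 and 1023 with DMSO (limma adjusted p = 0.255). Tnip3, for ABIN-3, was at 380.4 and 569.9 normalised reads with TMP269, against 484 and 732 with DMSO. Replicate 2 was the higher library of Tnip3 in both groups, and the groups overlapped (limma adjusted p = 0.262). It was called lower without TMP269 replicate 2 (limma adjusted p = 0.00621) or DMSO replicate 1 (0.0310), and Tnip2 was called higher without DMSO replicate 1 (0.0379).

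**Figure D3:**
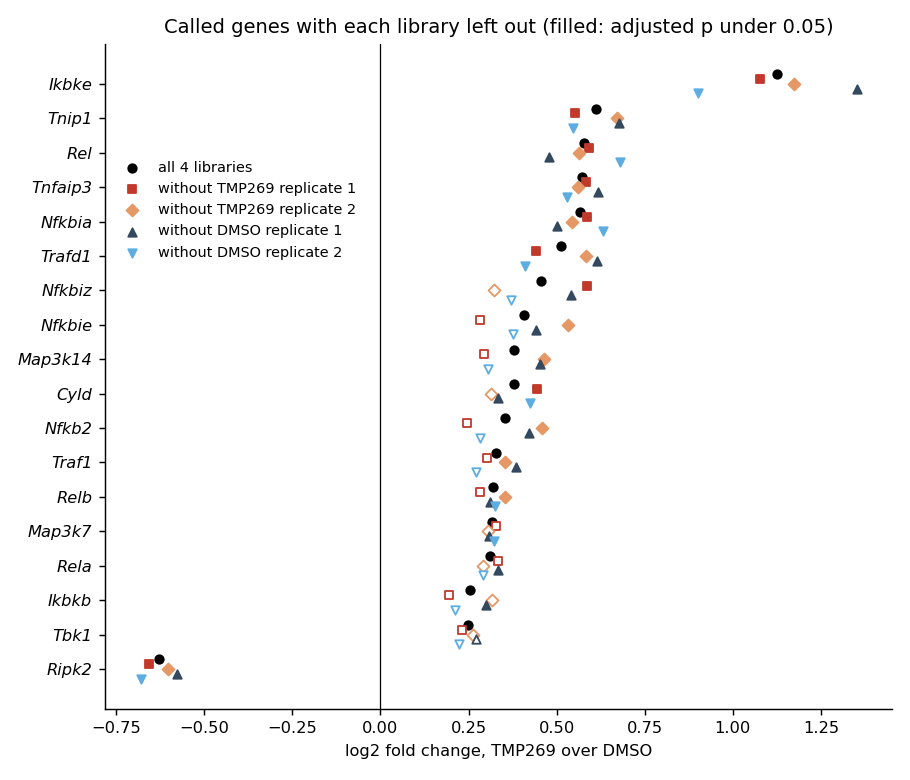
Log2 fold change of TMP269 over DMSO for the 18 called genes, with all 4 libraries and with each library left out in turn. Filled symbols have a limma adjusted p under 0.05; the 6 top genes and Ripk2 are filled throughout, and Tbk1 is filled only with all libraries.

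Ratios of 2 members within a library do not depend on the scaling between libraries, so 15 pairs of members with related roles were compared. The ratios are of normalised reads not corrected for gene length, so only their change between groups is read. In 8 pairs the ratio was higher in both TMP269 libraries than in both DMSO libraries, in 4 it was lower, and in 3 the groups overlapped. With 2 against 2 libraries a two-sided exact permutation test cannot give a p below 0.333. The 12 pairs without overlap reached that value, which is 0.417 after adjustment over the 15 pairs. Among single tested genes, both TMP269 libraries lay above both DMSO libraries for 32.6% and below for 34.0%. Those shares are of single genes, and the share over all gene pairs was not computed. Whether a ratio counts as higher or lower also depends on which gene was set as its numerator. The smallest difference without overlap was that of Tab2 to Tab3, at 1.07-fold. Some genes, such as Nfkbia and Rela, stand in several pairs, so the pairs are not separate observations.

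The ratio of Nfkb2 to Nfkb1 was 1.02 and 0.925 in TMP269 libraries and 0.665 and 0.651 in DMSO libraries, a 1.48-fold difference. The DMSO libraries differed little from each other, and both TMP269 libraries lay well above them. Rel to Rela was 0.401 and 0.396 with TMP269 and 0.305 and 0.360 with DMSO, whereas Relb to Rela was 0.747 and 0.689 with TMP269 and 0.701 and 0.728 with DMSO, with no separation. Nfkbia to Rela, an inhibitor against a subunit, was 1.97 and 1.97 with TMP269 and 1.56 and 1.75 with DMSO. Tnfaip3 to Nfkbia, a pair of feedback inhibitors, was 0.864 and 0.851 with TMP269 and 0.921 and 0.791 with DMSO, and the groups overlapped.

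Among kinases, the ratio of Ikbke to Tbk1 was 1.12 and 1.08 with TMP269 and 0.687 and 0.519 with DMSO (1.84-fold), and that of Ikbke to Ikbkb was 0.740 and 0.753 with TMP269 and 0.463 and 0.360 with DMSO. Traf1 to Traf2 was 3.21 and 3.06 with TMP269 and 2.42 and 2.25 with DMSO, and Traf5 to Traf2 was 0.290 and 0.268 with TMP269 and 0.195 and 0.207 with DMSO. Nfkbid to Nfkbia was 0.391 and 0.365 with TMP269 and 0.491 and 0.484 with DMSO, and Chuk to Ikbkb was 0.622 and 0.745 with TMP269 and 0.797 and 0.863 with DMSO, both lower with TMP269. Both TRAF ratios were separated, with the TMP269 libraries higher. Ripk2 to Ripk1 was 0.204 and 0.179 with TMP269 and 0.358 and 0.304 with DMSO, 0.580-fold. Tnip3 to Tnip1 had the widest spread, at 0.0851 and 0.139 with TMP269 and 0.165 and 0.273 with DMSO.

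**Figure D4:**
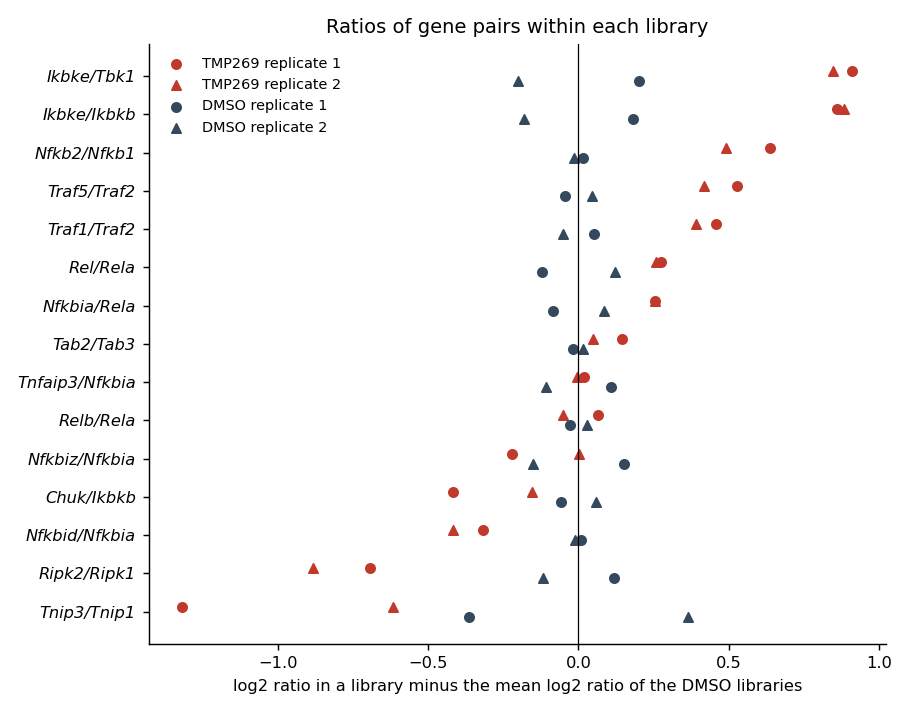
Log2 ratio of 2 genes in each library, less the mean log2 ratio of the DMSO libraries, for 15 pairs ordered by the difference between groups. The TMP269 libraries (red) lie right of both DMSO libraries (dark) in 8 pairs and left of them in 4, with Ikbke to Tbk1 and Tnip3 to Tnip1 at the ends.

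Other genes of the pathway were followed in 4 lists. Of 20 genes that carry antigen receptor, IL-1 receptor and Toll-like receptor signals to the pathway, 6 rose and 2 fell (median log2 fold change 0.03). In the whole table, 12.8% of the genes tested were called higher and 14.7% lower. Among the rises in the list were genes of antigen receptor signalling. Prkcq, for the T cell kinase PKCtheta, was at 3273 and 3389 normalised reads with TMP269, against 2338 and 2547 with DMSO, a 1.36-fold rise (limma adjusted p = 0.00486). The exchange factor gene Vav1 rose 1.37-fold and Lcp2, for the adaptor SLP-76, 1.29-fold. Irak3, for an inhibitory kinase-like protein of IL-1 and Toll-like receptor signalling, had few reads, at 64.1 and 64.6 normalised reads with TMP269, against 121 and 127 with DMSO, and fell to 0.523-fold. The IL-1 receptor gene Il1r1 was at 212 and 286 normalised reads with TMP269, against 344 and 525 with DMSO, and fell to 0.581-fold. Without TMP269 replicate 1 the list had 3 rises, Lcp2 no longer among them (limma adjusted p = 0.114), and without DMSO replicate 2 it had 1 fall, Il1r1 being lost (0.128).

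Of 15 TNF receptor family genes that signal to NF-kappaB, 4 rose and 3 fell (median log2 fold change 0.09), beside 12.8% and 14.7% of all tested genes. The death receptor gene Fas was at 841 and 1005 normalised reads with TMP269, against 491 and 545 with DMSO, and rose 1.78-fold (limma adjusted p = 0.00183), and the costimulatory receptor gene Cd27 rose 1.32-fold. Tnfrsf14, for HVEM, rose 1.47-fold and Ltbr, for the lymphotoxin beta receptor, 1.82-fold at 47.5 and 55.1 normalised reads with TMP269, against 24.3 and 31.4 with DMSO. Tnfrsf8, for CD30, was at 445 and 419 normalised reads with TMP269, against 856 and 872 with DMSO, and fell to 0.501-fold (limma adjusted p = 0.000419). Tnfrsf13c, for the BAFF receptor of B cells, fell to 0.646-fold, beside the lower B cell markers given above, and Tnfrsf9, for 4-1BB, fell to 0.799-fold. Without DMSO replicate 2 the list had 2 rises, with limma adjusted p-values of 0.0575 for Tnfrsf14 and 0.0528 for Ltbr. The Ltbr call was also lost without any other library, and that of Tnfrsf9 without TMP269 replicate 1 (0.145) or DMSO replicate 1 (0.117).

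Of 21 further genes for ubiquitin enzymes and their partner proteins, 1 rose and 3 fell (median log2 fold change 0.02), beside 12.8% and 14.7% of all tested genes. Usp18, an interferon-induced protease, was at 833 and 678 normalised reads with TMP269, against 448 and 396 with DMSO, and rose 1.78-fold (limma adjusted p = 0.00259). Ube2v1 and Ube2n, which together build the lysine-63 chains used by TRAF6, fell to 0.743-fold and 0.764-fold (limma adjusted p = 0.00456 and 0.0134), and the deubiquitinase gene Usp7 fell to 0.836-fold. Without DMSO replicate 2 only Ube2v1 was still called lower, with limma adjusted p-values of 0.0675 for Ube2n and 0.0806 for Usp7. The Usp7 call was also lost without any other library. Rises in this list moved with the scaling and the tool, with 7 called higher at equal library totals and 3 by edgeR.

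Textbook target genes of NF-kappaB in lymphocytes made up the last list, of which 46 of 48 were tested. A total of 19 rose, 7 fell and 20 were not called, with a median log2 fold change of 0.33, beside 12.8% of all genes called higher and 14.7% lower. Il2, a growth factor gene and classical c-Rel target, was at 2103 and 2236 normalised reads with TMP269, against 559.7 and 731 with DMSO, a 3.39-fold rise (limma adjusted p = 0.000127). The activation marker gene Cd69 was at 4016 and 3970.1 normalised reads with TMP269, against 1984 and 2056 with DMSO, and rose 1.98-fold. In both, the groups lay far apart. Cflar, for the caspase-8 inhibitor c-FLIP, was at 7803 and 7785 normalised reads with TMP269, against 4592 and 4673 with DMSO, and rose 1.68-fold (limma adjusted p = 0.000465). Tnf was at 2719 and 2851 normalised reads with TMP269, against 1631 and 1824 with DMSO, and rose 1.61-fold (limma adjusted p = 0.00111).

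Falls were called for 7 of the 46 tested targets, a share close to the 14.7% of all tested genes. The chemokine gene Cxcl10 was at 247 and 268 normalised reads with TMP269, against 417 and 564 with DMSO, and fell to 0.531-fold (limma adjusted p = 0.00406). Ier3, an early response gene, fell to 0.661-fold, Sod2, for the mitochondrial superoxide dismutase, to 0.764-fold and Myc to 0.805-fold. With any 1 library left out, 4 targets fell in place of 7, and with equal library totals 3 did. Sod2 did not hold without DMSO replicate 2 (limma adjusted p = 0.0970), and Myc without TMP269 replicate 1 (0.0877) or TMP269 replicate 2 (0.124). Of the 48 genes, 5 (Birc3, Cd40, Fas, Tnfrsf4 and Tnfrsf9) are also in the other lists, and many answer to other factors as well, so the counts are given as a description.

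**Figure D5:**
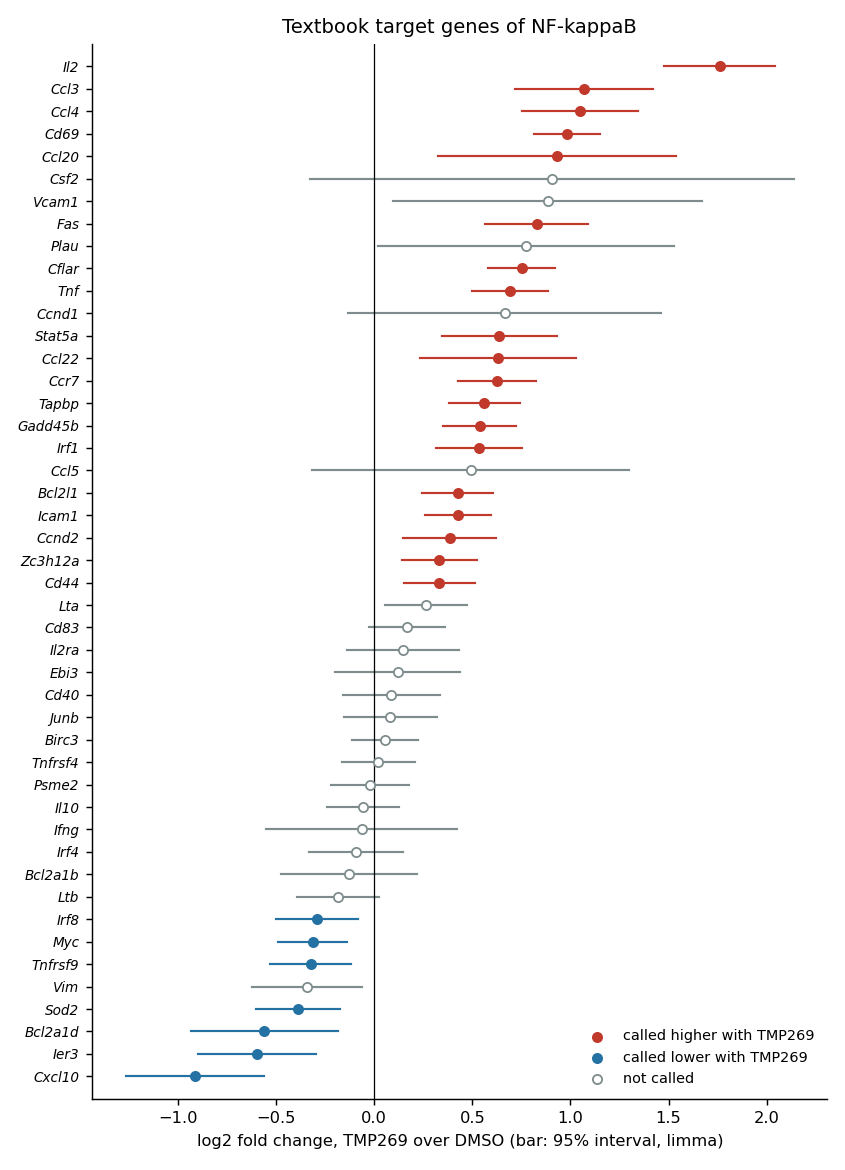
Log2 fold change of TMP269 over DMSO for the 46 tested target genes, ordered by size, with the unadjusted 95% interval from limma. Filled red points are the 19 genes called higher, filled blue points the 7 called lower and open points the 20 not called.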

How the data were processed

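RNA of 2 TMP269 and 2 DMSO libraries was polyA selected, per the labels' protocols. The deposited table gives a normalised signal, read counts divided by 1 size factor per library, as its values show: 100% of them were whole reads, within 1e-06 of a read, once multiplied by the factor (0.967 and 1.05 for TMP269, 1.11 and 0.829 for DMSO). The submitters' processing notes name CASAVA 1.4, Bowtie2, TopHat2 2.1.0, HTSeq, DESeq2 and mm9, with no role for each. No annotation, strand setting or multi-mapping rule is given in the sources used here, so counts of overlapping or near-identical genes are uncertain. Control columns named WT were matched to DMSO samples through the sample descriptions.

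Genes that reached a value of 10 in 2 or more libraries were tested with limma 3.58.1 (R 4.3.3, trend, no covariate, two-sided) on log2(value + 1), which understates the change of low genes. Benjamini-Hochberg adjustment covered all tested genes, with calls at an adjusted p under 0.05. The fit was checked on simulated data with the same spread setting for every gene and with changes larger than those of most called members. How well it recovers smaller changes was not tested. On recovered reads, edgeR 4.0.16 (TMM, quasi-likelihood) called 3406 genes and DESeq2 1.42.0 called 2853, against 3448 here. All members had at least 212 reads in every library.

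Members, lists, pairs and tests were chosen with earlier results of these data known. Named genes were all members and, in each of the 4 pathway lists, up to 4 called genes per direction by smallest p; a gene that this rule names is not reported here. RefSeq promoters are of another build (GRCm38.p6) than the table. Alternatives are given at the end.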

Additional observations from a re-analysis of the deposited data

How the results depend on the processing

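The numbers of higher and lower members were 18 and 1 with edgeR, limma-voom, TMM factors or a filter at 50, 15 and 1 with DESeq2 or no filter, 17 and 1 with pseudocounts of 0.5 or 5, and 20 and 1 at an adjusted p under 0.1. At an adjusted p under 0.01, 6 members were higher and 1 lower, and 1487 genes of the whole table were called in either direction. Calls over all genes also rose to 4643 at an adjusted p under 0.1 and fell to 3005 with no filter, from 3448. They were 3404 with limma-voom, 3380 with TMM factors, 3381 with a filter at 50, and 3440 and 3465 with pseudocounts of 0.5 and 5. These totals count both directions, and 1653 of the limma-voom calls and 1651 of those with TMM factors were higher. Of all tested genes, edgeR called 13.2% higher and DESeq2 10.7%, beside the 12.8% given above. With single libraries left out, higher members ranged from 8 to 17, lower members from 1 to 2, calls over all genes from 2078 to 3675, and the members' median log2 fold change from 0.18 to 0.27. That median was 0.29 with equal library totals. Replicate numbers are shared between the groups, but nothing in the labels says that a number marks a common culture, animal or day. With the replicate number as a replicate block, 25 members were higher, 3 lower (Ripk2, Tnip3 and Nfkb1, with limma adjusted p-values of 2.1e-06, 0.00116 and 0.00521) and 6360 genes called, with 24.0% of all tested genes higher and 26.7% lower. The deviations of equally numbered libraries correlated at r = 0.37 across genes, which are not independent.

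Under these alternatives signs turned only in members that were not called. With equal totals the log2 fold change was 0.074 for Chuk, 0.0081 for Traf2 and 0.045 for Traf4. Over the left-out libraries it ranged from -0.072 to 0.083 for Nfkbib (below 0 without DMSO or TMP269 replicate 1), -0.099 to 0.038 for Chuk (above 0 without TMP269 replicate 1), -0.39 to 0.010 for Tab1 (above 0 without DMSO replicate 1) and -0.013 to 0.26 for Sharpin (below 0 without DMSO replicate 2). Among ratios, log2 differences turned in 3 pairs with overlapping groups: Relb to Rela (-0.052 to 0.064), Nfkbiz to Nfkbia (-0.26 to 0.040) and Tnfaip3 to Nfkbia (-0.10 to 0.12). The cause of these shifts was not tested. A lone library in a fit is taken to vary like those of the other group.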
